A study of Mus musculus with 17 samples.

Results

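The genes described here build ribosomes: the subunits of RNA polymerase I, which transcribes ribosomal RNA, and the nucleolar proteins that modify, cleave, fold and assemble that RNA into the small and large ribosomal subunits. The list held 38 genes, chosen by function but with earlier results of these data known. Of these genes, 37 were found among the 18193 genes measured, as probe sets that carry that single gene symbol. Npm3 matched no such probe set, so its expression is not described; its promoter is counted below. The 37 genes had 76 probe sets between them, and each gene was followed through the probe set with the highest mean over all arrays.

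The study hybridised RNA of 5 sorted progenitor populations of mouse bone marrow (adult animals, 10 to 14 weeks old) to 17 Affymetrix arrays. The labels name no strain, treatment or genetic change. CLP (common lymphoid progenitors, gated as Lin-Sca1lowKitlowIL7r+Flk2+) had 3 arrays. PreGM (granulocyte and monocyte precursors, Lin-Sca1-Kit+Itga2b-FcgRlowSlamf1-Englow) had 3 arrays. PreMegE (precursors of megakaryocytes and red cells, Lin-Sca1-Kit+Itga2b-FcgRlowSlamf1+Englow) had 5 arrays. MkP (megakaryocyte progenitors, Lin-Sca1-Kit+Itga2b+Slamf1+) had 3 arrays. PreCFUE (early erythroid progenitors that precede the erythroid colony-forming cell, Lin-Sca1-Kit+Itga2b-FcgRlowSlamf1+Enghigh) had 3 arrays. Nothing in the labels tells whether arrays with the same gate stem from different animals, and the p-values therefore reflect array-to-array spread that could be technical. A description field shared by all arrays names a different gate from the titles, and the titles were used. The short names follow the usual naming of these gates.

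As background, ribosome production starts in the nucleolus, where RNA polymerase I copies the ribosomal DNA repeats into one long precursor RNA. Small nucleolar ribonucleoproteins mark that precursor with methyl groups and pseudouridines, the small-subunit processome cuts out the small-subunit RNA, and further factors, among them the Pes1, Bop1 and Wdr12 complex, mature the large-subunit RNA. The transcription factor Myc is known to drive many of these genes in growing cells. Red cell precursors depend on a high rate of protein synthesis, and inherited defects in ribosome production are known to cause anemia.

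Promoter windows of RefSeq (mouse assembly GRCm38.p6, 250 bases before to 50 bases after the annotated start) were at hand for 33 of the 38 listed genes; those without were Bop1, Fbl, Npm1, Rrp12 and Rrs1. They were searched for a pair of short sequence words as a description, and any link to expression was not tested. The words were CACGTG, the canonical E-box bound by Myc and related factors, which reads the same on both strands, and CGCGAGA, searched with its reverse complement TCTCGCG. The E-box was found in the windows of 6 genes, or 18.2%, against 8.09% of all 27025 genes with a window and 8.91% of the 17492 protein-coding ones. These are the 30-base stretches of the + or - gene strand around it, 5' to 3', with the word in capitals.
Mybbp1a, chr11:72441347-72441376 (+): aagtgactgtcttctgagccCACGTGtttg
Nop2, chr6:125131811-125131840 (+): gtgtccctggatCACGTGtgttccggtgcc
Pes1, chr11:3963965-3963994 (+): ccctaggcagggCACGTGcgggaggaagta
Tsr1, chr11:74898092-74898121 (+): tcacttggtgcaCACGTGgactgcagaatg
Utp20, chr10:88826765-88826794 (-): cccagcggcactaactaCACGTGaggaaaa
Wdr43, chr17:71616220-71616249 (+): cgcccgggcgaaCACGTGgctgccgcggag
The E-box of Nop2 lay before the annotated start, and those of the other 5 genes lay after it.

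CGCGAGA or TCTCGCG was found in the windows of 6 genes as well, again 18.2%, against 2.92% of all genes and 3.93% of protein-coding genes. Its stretches are shown in the same way, and Nop14 held the word at 2 places.
Nop14, chr5:34660133-34660162 (-): gacgcactcatCGCGAGAcgaagctgggcg
Nop14, chr5:34660165-34660194 (-): acttgtgtactTCTCGCGaaatacgggaag
Polr1c, chr17:46248033-46248062 (-): gcggggcaagaTCTCGCGacattcaagatt
Nop58, chr1:59684843-59684872 (+): aaaaaaaaaagTCTCGCGatattttaaggc
Wdr12, chr1:60098348-60098377 (-): gagccccacaaCGCGAGAggggagtccgcc
Tsr1, chr11:74898003-74898032 (+): gcaaaaaacctCGCGAGAggtcgcggaagt
Noc2l, chr4:156236035-156236064 (+): tgggcgcgccatggctgcgTCTCGCGctcc
Tsr1 was the only gene with both words, and 11 of the 33 genes held at least one. Counts of this kind describe letters in a window, not binding. The windows were also rich in CpG: the median was 21 CpG per window, against 7 over all genes and 13 over protein-coding genes. Nolc1 and Polr1b, which had the smallest adjusted p in the F test and the largest difference in any of the 5 comparisons, held neither word, and the 120 bases before their starts are shown with each CpG in capitals.
Nolc1, chr19:46075727-46075846 (+): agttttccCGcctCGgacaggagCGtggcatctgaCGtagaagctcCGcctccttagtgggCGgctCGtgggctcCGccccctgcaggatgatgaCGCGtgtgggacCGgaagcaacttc
Polr1b, chr2:129100876-129100995 (+): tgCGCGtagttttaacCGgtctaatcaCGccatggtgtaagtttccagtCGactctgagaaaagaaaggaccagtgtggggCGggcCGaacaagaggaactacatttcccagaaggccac
The Nolc1 stretch held 11 CpG and the Polr1b stretch 7.

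Some lineage marker genes were clearly highest in the fraction labelled for them and others were not, and the gate's own genes were less clear between preMegE and preCFUE. Il7r was at 1752 ± 553 in CLP (SD, n = 3), Mpo at 7503 ± 923 in preGM, Pf4 at 6431 ± 316 in MkP and Rhd at 489 ± 59.7 in preCFUE, each far above its mean in every other fraction. Gata1 was at 1219 ± 168 in preMegE (n = 5), 723 ± 194 in MkP and 1400 ± 53.8 in preCFUE. Of the other preMegE markers, Gata2 was highest in preMegE. Klf1 was higher in preCFUE (2917 ± 209 against 2142 ± 611) and Zfpm1 in MkP (903 ± 161 against 648 ± 183). Of the other preCFUE markers, Rhag was at 637 ± 75.7 in preCFUE and 200 ± 51.4 in preMegE. Epor was at 231 ± 35.7 and 166 ± 39.9 in these fractions. Tfrc was at 1058 ± 260 in preCFUE and 808 ± 408 in CLP. Slamf1, in the gate as positive for preMegE, MkP and preCFUE, was at 101 ± 13.2 in preMegE and 58.7 ± 7.19 in MkP but at 20.4 ± 1.89 in preCFUE, near the 10.6 ± 1.75 of the Slamf1- preGM. Eng, which the gates put high in preCFUE and low in preMegE, was at 237.5 ± 44.2 and 234 ± 16.2 (0.01 ± 0.14, adjusted p 0.996 in limma). At the RNA level these sort genes thus did not separate preMegE and preCFUE the way the labels do. Summed markers of erythroblasts (3 genes measured) lay between 27.3 and 54.2 on all arrays, those of macrophages (6 genes) between 69.9 and 107, and no value in the table was 0. Summed neutrophil markers (6 genes) ran from 88.3 to 1541, with the widest range within preMegE, from 100.5 to 1541. Summed T and NK markers (5 genes, mostly Nkg7) ran from 479 to 633 in preMegE and from 113.5 to 136 in preCFUE, and summed B cell markers (5 genes) from 55.5 to 230.2 over all arrays. Stroma and endothelium markers (6 genes) summed to 84.6 to 225. The part of such cells in the results was not tested.

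Arrays differed in how bright their brighter genes were. The 90th percentile of intensity over probe sets was 164 to 238 in CLP and 175 to 221 in MkP, against 235 to 280 in preGM, 192 to 292 in preMegE and 240 to 277 in preCFUE. The fractions with low values of the ribosome genes, CLP and MkP, were thus also those with low upper percentiles, so counts are also given after quantile normalization, which gives every array the same distribution of values. CLP replicate 2 stood apart from the other CLP arrays: its 90th percentile was 238 against 164 and 165, and the median deviation of the 37 genes from their means was -0.03 against -0.65 and -0.69 on the log2 scale. Correlations between CLP arrays over all genes were 0.94 to 0.96, the lowest of any fraction. The log2 ratio of 3' to 5' Gapdh control probe sets, a sign of RNA quality and amplification, moved with this: it was 3.00 on CLP replicate 2 against 5.12 and 4.08 on the other CLP arrays. In preGM the array with the highest ratio, replicate 3 at 3.94 against 2.72 and 3.15, also had the lowest median deviation, -0.09 against 0.18 and 0.13. In preCFUE ratios of 2.85, 3.53 and 4.09 went with median deviations of 0.89, 0.56 and 0.55. The highest ratios in preMegE, 4.06 and 4.21 on replicates 2 and 5, went with its lowest deviations, -0.22 and -0.01. In MkP the lowest ratio, 3.38, went with the highest deviation, but the highest ratio, 4.14, did not go with the lowest. The ratio overlapped between fractions, with medians of 4.08 for CLP, 4.03 for MkP, 3.53 for preCFUE, 3.42 for preMegE and 3.15 for preGM. In these bulk samples, fewer cells of a type and less RNA per cell cannot be told apart.

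The ribosome genes were highest in the erythroid fraction preCFUE. Of the 37 genes, 36 had their highest mean in preCFUE as deposited, and 33 after quantile normalization; over all genes preCFUE was highest for 24.3%. The exception as deposited was Nop58, highest in preMegE. The lowest mean was in CLP for 24 genes and in MkP for 13, and after quantile normalization in CLP for 21, in preGM and MkP for 6 each and in preMegE for 4. Over all genes as deposited, CLP was lowest for 28.8% and MkP for 15.3%. The median deviation of the genes from their mean over fractions was 0.58 in preCFUE, 0.12 in preMegE, 0.09 in preGM, -0.32 in MkP and -0.50 in CLP on the log2(intensity + 16) scale. The quantile-normalized medians were 0.42, 0.04, -0.09, -0.18 and -0.30 in the same order, so preGM changed sign.

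**Figure D1:**
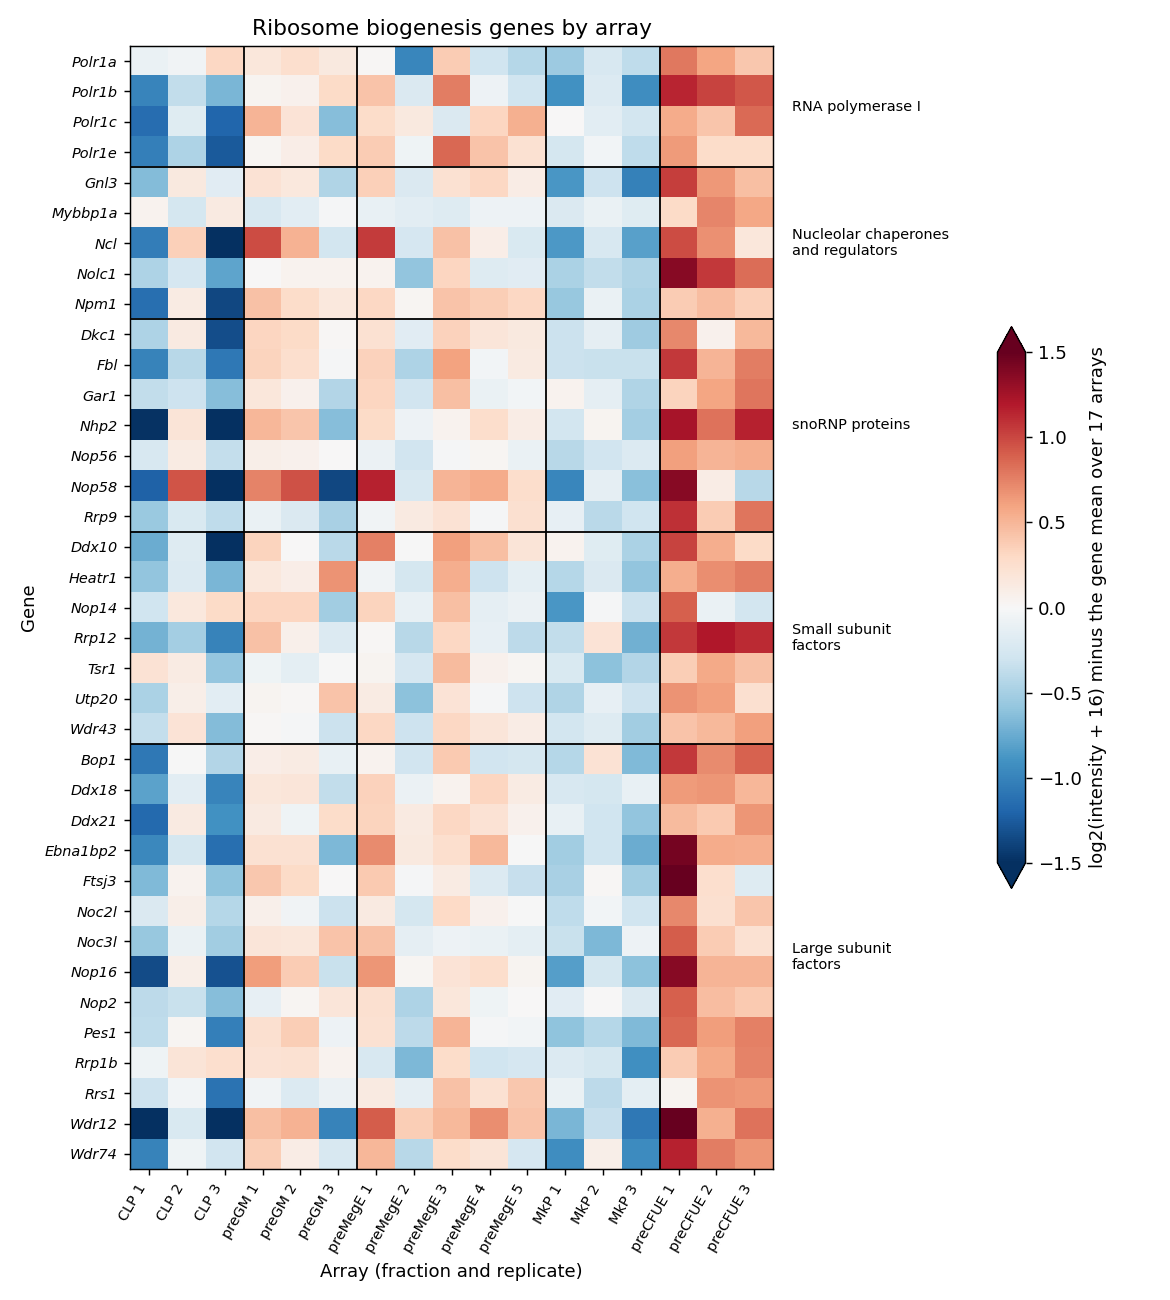
Values of the 37 genes on each array (columns, grouped by fraction), as log2(intensity + 16) minus the gene's mean over the 17 arrays; rows are genes, and colour gives the difference. The preCFUE arrays are above the gene's mean for 37, 36 and 34 genes, the MkP arrays for 3, 6 and 0, and CLP replicate 2 for 17 where the other CLP arrays are above for 2 and 4.

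A moderated F test asked which genes differed among any of the 5 fractions. It was passed at an adjusted p under 0.05 by 33 of the 37 genes, against 34.9% of all genes, and by 23 after quantile normalization. The share of all genes after quantile normalization is not given here. The smallest adjusted p belonged to Nolc1 (0.000102), Nop56 (0.000235), Rrp9 (0.000305), Rrp12 (0.000331), Polr1b (0.000695) and Mybbp1a (0.000852). Ncl (adjusted p 0.0768), Ftsj3 (0.17), Nop58 (0.463) and Nop14 (0.56) did not pass.

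Among the RNA polymerase I subunits, Polr1b, the second largest subunit, differed most between fractions. Its intensity was 67.5, 113 and 87.5 in CLP, 155, 157 and 187 in preGM, 207, 126, 266, 142 and 119 in preMegE, 72.0, 128 and 71.2 in MkP and 349, 320 and 299.5 in preCFUE, in replicate order. All preCFUE arrays lay above every other array for this gene. Polr1a, the largest subunit, was at 232 to 307 in preCFUE, 112 to 143 in MkP and 79.1 to 228 in preMegE, so preCFUE stood above both. Polr1e, a subunit involved in initiation, was low on the CLP arrays, at 56.1, 90.3 and 44.9, against 133, 141 and 162 in preGM. Its preCFUE values of 161 to 211 overlapped the preMegE values of 124 to 251. Polr1c, which is shared with RNA polymerase III, was at 353 to 722 in CLP and 1105 to 1498 in preCFUE.

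Of the nucleolar chaperones and regulators, Nolc1, a phosphoprotein that binds small nucleolar ribonucleoproteins and RNA polymerase I, set preCFUE apart most clearly. Its intensity was 888, 716 and 611 in preCFUE, while the other 14 arrays lay between 187 and 423. The lowest preCFUE array was thus above the highest array of any other fraction. Mybbp1a, a nucleolar regulator of ribosomal RNA transcription, was at 1583, 2165 and 1937 in preCFUE and at 1072 to 1425 elsewhere. Gnl3 (nucleostemin), a GTPase of the nucleolus, was at 641, 953 and 578 in MkP and at 1015 to 1517 in preMegE, without overlap. Its preCFUE arrays, at 2442, 1865 and 1627, were above both. Npm1 (nucleophosmin), a histone and ribosome chaperone, was at 1874, 4454 and 1579 in CLP and at 2763 to 3815 in MkP. Its values in preGM (4568 to 5539), preMegE (4207 to 5495) and preCFUE (5250 to 5670) were similar in range. CLP replicate 2 was close to preGM for Npm1, and the other CLP arrays were far below. Ncl (nucleolin) varied widely within fractions, from 1453 to 3613 in preMegE alone.

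Among the small nucleolar ribonucleoproteins, Nop56, a core protein of the C/D class that guides RNA methylation, was at 2350, 2177 and 2240 in preCFUE and at 1144 to 1656 on all other arrays. Rrp9, which binds the U3 small nucleolar RNA, was at 340, 201 and 275 in preCFUE and at 97.7 to 181 elsewhere. Both genes thus had preCFUE arrays above every other array. Fbl (fibrillarin), the methyltransferase of the C/D class, was at 325, 493 and 308 in CLP, 842, 792 and 655 in preGM, 527, 523 and 523 in MkP and 1400, 949 and 1142 in preCFUE. Fbl was lower in CLP than in preGM, and lower in MkP than in preCFUE, without overlap. Nop58, the partner of Nop56, ranged from 97.7 to 554 within preGM and from 203 to 740 within preCFUE, and the fractions overlapped. Of the H/ACA class, which guides pseudouridylation, Nhp2 was at 1762 to 2374 in preCFUE and at 692 to 1021 in MkP. Dkc1, the pseudouridine synthase of that class, was at 1286 to 2029 in preCFUE and 843 to 1124 in MkP.

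Of the small-subunit factors, Rrp12, which takes part in export of the pre-ribosomal subunits, was at 160, 177 and 166 in preCFUE, and no other array exceeded 98.3. It was lowest in CLP, at 35.5, 43.1 and 26.0. Heatr1, a processome protein needed for ribosomal RNA transcription, was at 501, 562 and 588 in preCFUE and at 220 to 291 in MkP. Its preMegE arrays lay at 271 to 505, so 1 of them reached the preCFUE values. Tsr1, a late assembly factor of the small subunit, was at 2819, 3232 and 2968 in preCFUE and 1426 to 1859 in MkP. Nop14 overlapped between all fractions.

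Of the 14 large-subunit factors, the 3 proteins of the Pes1, Bop1 and Wdr12 complex all lay lower in MkP than in preCFUE on every array. Pes1 was at 307, 259 and 283 in preCFUE and 100.3, 116 and 96.2 in MkP. Bop1 was at 348, 269 and 307 in preCFUE, 127 to 212 in preMegE and 94.6 to 187 in MkP. Wdr12 was at 840, 412 and 503 in preCFUE, 368 to 539 in preMegE, 168, 217 and 125 in MkP and 68.4 to 237 in CLP. For Wdr12 the preMegE and preCFUE arrays overlapped, and both lay above MkP. Wdr74, an assembly factor of the large subunit, was at 636, 482 and 446 in preCFUE and 136, 295 and 136 in MkP. Ftsj3, an RNA methyltransferase, was at 173 on 1 preCFUE array and 63.5 and 42.2 on the others, and all its fractions overlapped.

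**Figure D2:**
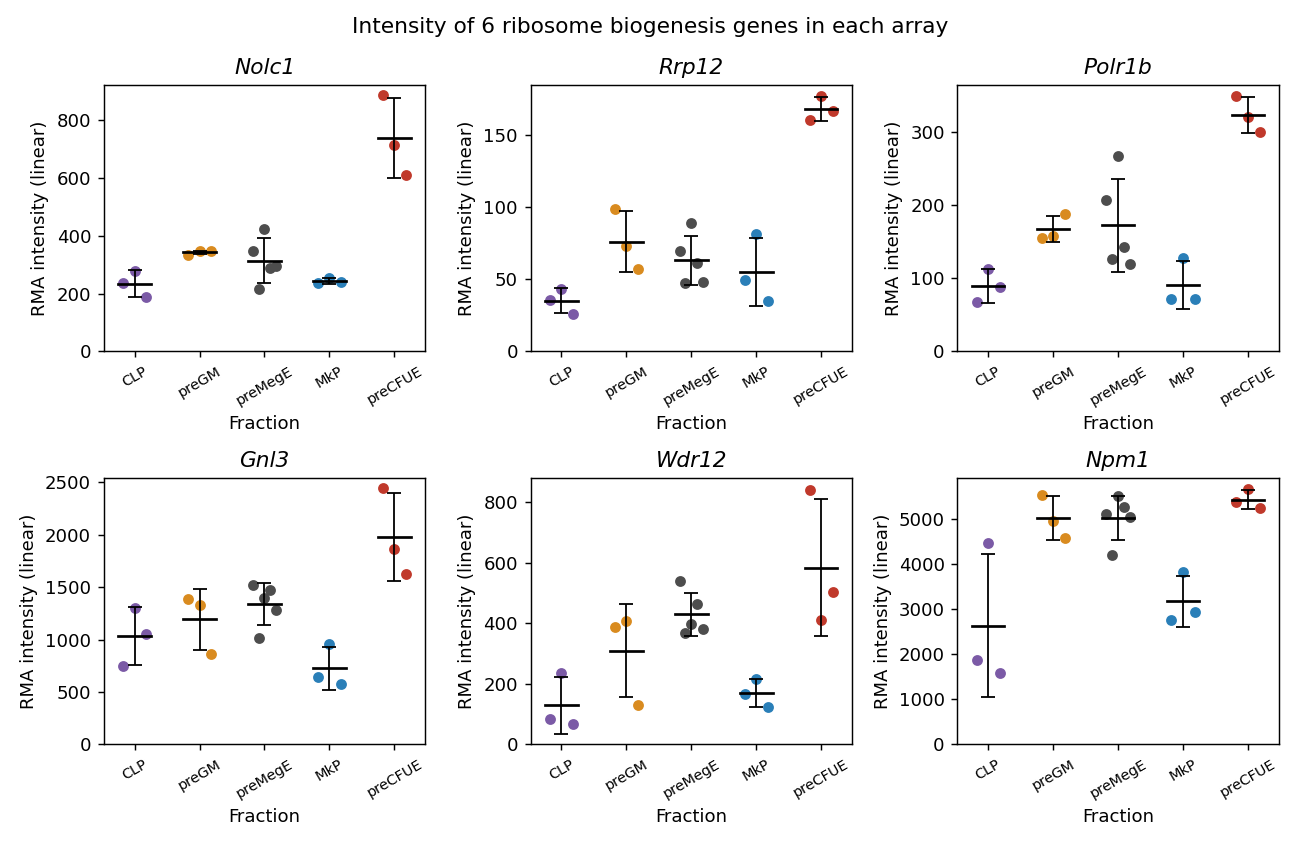
Linear RMA intensity (vertical axes from 0) of 6 of the genes in the 5 fractions; each point is 1 array and the bars show the mean and SD. The 3 preCFUE arrays of Nolc1 lie at 611 to 888, above all other arrays.

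Fold changes below are differences of log2(intensity + 16) with their standard errors from the model over all 17 arrays, and p-values were adjusted over all 18193 genes. On this scale the change of dim genes is understated. A gene is said to be higher or lower where its adjusted p was under 0.05. Counts with array weights, a covariate or arrays left out are given without the share of all genes. Calls over all genes can move under such settings as well.

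Between preMegE and preGM, which differ in Slamf1 in their gates, no gene of the list passed the test. Of the 37 genes, 0 were higher and 0 lower in limma, against 2.81% of all genes higher and 5.88% lower; at an unadjusted p under 0.05, 1 gene was higher and 0 lower. The median fold change was 0.01, with 20 genes above 0 and 17 below, and the median over all genes was 0.01. Rrp9 was the gene whose arrays did not overlap (145 to 181 in preMegE, 103 to 139 in preGM; 0.37 ± 0.14, adjusted p 0.171), where arrays of preMegE lay wholly above preGM for 5.4% of all genes. The most abundant, Npm1, stood at 5025 ± 489 (SD, n = 5) in preMegE and 5018 ± 489 (n = 3) in preGM, a difference of 0.00 ± 0.24 with adjusted p 1.0. Tsr1 had 2324 ± 435 and 2082 ± 109 (0.14 ± 0.17, adjusted p 0.858). After quantile normalization the median was 0.12, and 1 gene, Wdr43, a processome protein, was higher (0.33, adjusted p 0.0171). Of all 18193 genes, 654 were then higher and 1008 lower.

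Of the 114 other genes of the pathway that were measured, 1 was higher and 0 lower in preMegE in limma, with 7 and 2 at an unadjusted p under 0.05 and 4 and 0 after quantile normalization. The one as deposited was Rcl1, a processome factor, at 285 ± 48.5 against 183 ± 19.5 (0.58 ± 0.15, adjusted p 0.025). Myc did not pass (660 ± 165 in preMegE, 672 ± 288 in preGM, adjusted p 0.993), whereas Mycn was higher in preMegE (557 ± 229 against 219 ± 49.4; 1.24 ± 0.26, adjusted p 0.00677). Of 18 S-phase genes, 7 were lower in preMegE, led by Gins1 (-1.16 ± 0.24, adjusted p 0.00468) and Rrm2 (-1.14 ± 0.15, adjusted p 0.0001), while the ribosome genes had a median near 0. Of 18 genes of the G2 and M phases, 1 was lower. After quantile normalization 8 S-phase genes and 1 G2 and M gene were lower.

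MkP had lower values than preMegE throughout the list, but few genes passed. All 37 fold changes were below 0 as deposited, with a median of -0.42, against 29 below and 8 above 0 after quantile normalization, with a median of -0.18. The median over the 10916 genes above the 40th percentile of intensity was -0.13 as deposited and 0.03 after quantile normalization. In the test 2 genes were lower and 0 higher (0 higher at an unadjusted p under 0.05, 13 lower), against 6.37% of all genes lower and 3.98% higher; of the genes above the 40th percentile 10.4% were lower. They were Gnl3, at 724 ± 201 in MkP and 1335 ± 201 in preMegE (-0.89 ± 0.22, adjusted p 0.0198), and Polr1b, at 90.4 ± 32.5 and 172 ± 63.1 (-0.80 ± 0.24, adjusted p 0.0454). Quantile normalization kept Gnl3 (-0.64, adjusted p 0.0178) and not Polr1b (-0.58, adjusted p 0.0535). The largest difference belonged to Wdr12 (-1.28 ± 0.39, adjusted p 0.0517), which missed the threshold. The arrays of 9 genes lay wholly below those of preMegE, which held for 12.1% of all genes and 2114 of the 10916 above the 40th percentile. The most abundant genes that did not pass were Npm1 (3171 ± 564 against 5025 ± 489; -0.67 ± 0.24, adjusted p 0.10) and Tsr1 (1630 ± 218 against 2324 ± 435; -0.50 ± 0.17, adjusted p 0.0873).

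The count was sensitive to the setting and to single arrays. It was 15 with array weights and 6 with the Gapdh ratio as a covariate or with the mean over all probe sets of a gene. It was 0 without MkP replicate 1 or 3, 1 without preGM replicate 1 or 2, preMegE replicate 1, 3 or 4, or preCFUE replicate 2 or 3, 4 without CLP replicate 3 or preGM replicate 3, 6 without preMegE replicate 2, and 9 without CLP replicate 2. In a fit of the MkP and preMegE arrays alone it was 8.

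Of the 114 other pathway genes, 19 were lower in MkP and 0 higher, with 38 lower and 1 higher at an unadjusted p under 0.05. Their median was -0.44. After quantile normalization 10 were lower and 3 higher, and the median was -0.17. Nsa2, a large-subunit factor, was at 221 ± 33.9 in MkP and 683 ± 226 in preMegE (-1.51 ± 0.39, adjusted p 0.0241). Imp3, a U3 component, was at 133 ± 20.5 and 364 ± 75.4 (-1.34 ± 0.37, adjusted p 0.0326). Myc was lower in MkP, at 229.6 ± 10.4 against 660 ± 165 (-1.43 ± 0.24, adjusted p 0.00132), and Mycn was higher, at 1046 ± 205 against 557 ± 229 (0.94 ± 0.26, adjusted p 0.0353). Cell cycle genes went the opposite way to the ribosome genes: 13 of 18 G2 and M genes and 4 of 18 S-phase genes were higher in MkP and 0 of either lower (0 also at an unadjusted p under 0.05). After quantile normalization 18 and 9 were higher. Rrm2 (1.62 ± 0.15, adjusted p 5.48e-06) and Ube2c (1.49 ± 0.18, adjusted p 8.31e-05) led.

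PreCFUE had higher values than preMegE for nearly the whole list. Of the 37 fold changes 36 were above 0 as deposited and 35 after quantile normalization, with medians of 0.53 and 0.46 against 0.02 as deposited over the genes above the 40th percentile of intensity. In the test 12 genes were higher, against 4.75% of all genes and 7.65% of those above the 40th percentile, and 0 were lower, against 3.94%; at an unadjusted p under 0.05 the counts were 23 and 0. The 12 came from every role group: Polr1a and Polr1b of the polymerase, Nolc1 and Mybbp1a of the regulators, Nop56 and Rrp9 of the ribonucleoproteins, Rrp12, Heatr1 and Utp20 of the small-subunit factors, and Bop1, Rrp1b and Nop2 of the large-subunit factors. For 18 genes the preCFUE arrays lay wholly above those of preMegE. This held for 9.89% of all genes and 1631 of the 10916 above the 40th percentile.

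Rrp12 rose most, from 62.8 ± 17.2 (SD, n = 5) in preMegE to 168 ± 8.48 (n = 3) in preCFUE (1.25 ± 0.21, 2.37-fold on this scale, adjusted p 0.00168). Nolc1 stood at 314 ± 76.5 and 738 ± 139.6 (1.21 ± 0.17, 2.31-fold, adjusted p 0.000426). Bop1 stood at 152 ± 37.1 and 308 ± 39.6 (0.96 ± 0.24, adjusted p 0.0187). In all 3 genes the arrays did not overlap. The polymerase subunits followed, Polr1b with 0.91 ± 0.24 (172 ± 63.1 to 323 ± 24.9, adjusted p 0.0267) and Polr1a with 0.86 ± 0.22 (148 ± 56.0 to 268.5 ± 37.7, adjusted p 0.0263). Rrp1b, a large-subunit factor, had 0.80 ± 0.19 (269.5 ± 69.2 to 474 ± 61.3, adjusted p 0.0149). The other 6 ranged from 0.60 for Nop2 to 0.71 for Heatr1. The most abundant genes that did not pass were Npm1 (5428 ± 217 against 5025 ± 489; 0.12 ± 0.24, adjusted p 0.954) and Tsr1 (3006 ± 209.6 against 2324 ± 435; 0.39 ± 0.17, adjusted p 0.246).

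After quantile normalization 14 genes were higher, 11 of them among the 12. Of all 18193 genes, 909 were then higher, and 870 of the 10916 above the 40th percentile of intensity. The one lost was Mybbp1a (0.51, adjusted p 0.14). Without preCFUE replicate 1 the count was 5, and without replicate 2 or replicate 3 it was 7; without CLP replicate 2 it was 16. With array weights it was 21, and with the Gapdh ratio as a covariate 19. Rrp12, Nolc1, Nop56 and Mybbp1a passed whichever single array was left out. With the mean over all probe sets of a gene in place of the brightest, Nolc1 (0.70), Nop56 (0.29), Bop1 (0.49), Heatr1 (0.34) and Polr1a (0.17) did not pass. Of 13 other probe sets of the 12 genes, 9 had the same sign and 4 the opposite sign, none of those 4 passing. Those of Polr1a include probe sets with mean intensities of 6.83 and 7.02, whose signs carry little weight.

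Of the 114 other pathway genes 16 were higher and 0 lower, with 49 and 1 at an unadjusted p under 0.05, and their median was 0.44. After quantile normalization 22 were higher and 0 lower, with a median of 0.37. By list, 6 of 40 small-subunit factors, 5 of 41 large-subunit factors, 2 of 9 ribonucleoprotein factors, 3 of 13 exosome subunits and 0 of 11 other polymerase I factors were higher (3 of the 11 at an unadjusted p under 0.05). Noc4l, a small-subunit factor, rose from 440 ± 73.2 to 1134 ± 27.8 (1.35 ± 0.14, adjusted p 3e-05). Dis3, the catalytic subunit of the exosome, rose from 302.5 ± 53.4 to 770.5 ± 94.6 (1.31 ± 0.27, adjusted p 0.00665). Myc had 658 ± 82.5 in preCFUE and 660 ± 165 in preMegE (0.03 ± 0.24, adjusted p 0.991), and the sign turned under quantile normalization (-0.09). Mycn fell from 557 ± 229 to 24.7 ± 1.44 (-3.74 ± 0.26, adjusted p 7.46e-07). Of the cell cycle genes, 16 of 18 G2 and M genes and 8 of 18 S-phase genes were higher in preCFUE, led by Bub1 (1.87 ± 0.33, adjusted p 0.00224) and Kif20a (1.72 ± 0.34, adjusted p 0.00499). After quantile normalization 15 G2 and M genes and 10 S-phase genes were higher. Cell cycle genes thus moved with the ribosome genes in this comparison, and their part in the result was not tested.

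**Figure D3:**
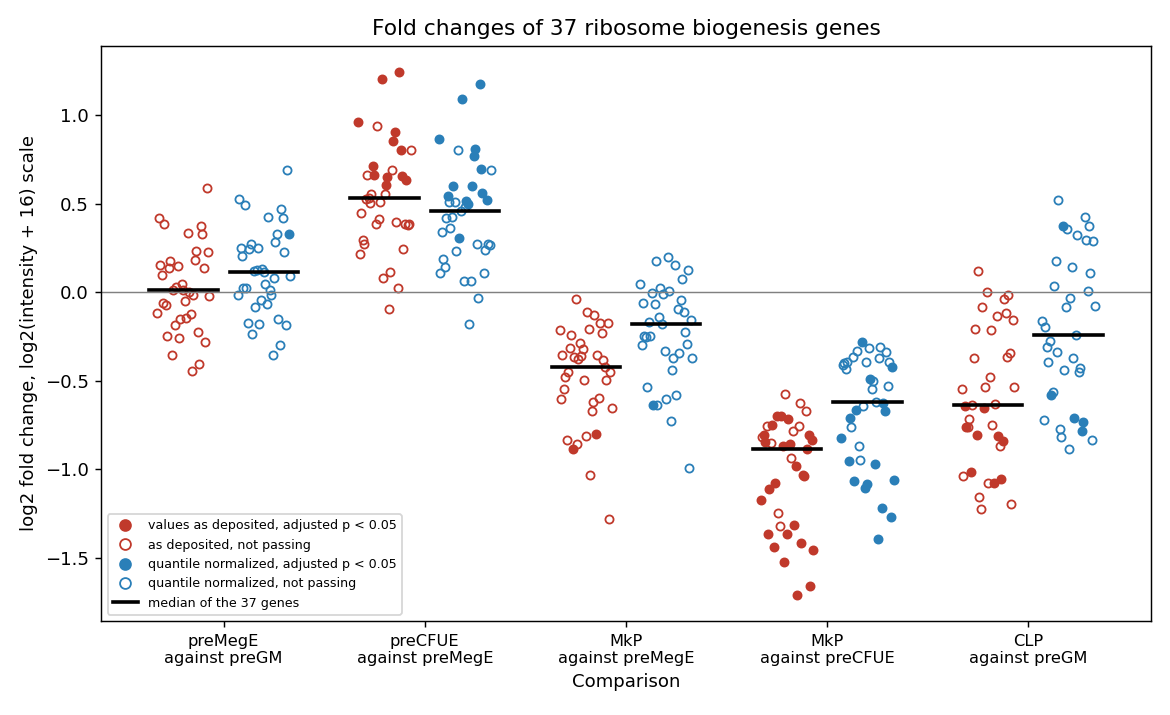
Fold changes (vertical axis, difference of log2(intensity + 16)) of the 37 genes in the 5 comparisons, as deposited (red) and after quantile normalization (blue); each point is a gene, filled where its adjusted p was under 0.05, and the black line is the median. In MkP against preCFUE all 37 genes lie below 0 in both, with medians of -0.88 and -0.62, and in CLP against preGM the median moves from -0.64 to -0.24.

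The clearest contrast was between the fractions gated for the megakaryocyte and the erythroid lineage. In MkP against preCFUE all 37 genes were below 0, as deposited and after quantile normalization, with medians of -0.88 and -0.62 against -0.16 and 0.01 over the genes above the 40th percentile of intensity. In the test 26 genes were lower, against 10.7% of all genes and 17.4% of those above the 40th percentile, and 0 were higher, against 5.51%; at an unadjusted p under 0.05 the counts were 34 and 0. After quantile normalization 17 were lower, all among the 26, against 1180 of all 18193 genes. For 34 genes the MkP arrays lay wholly below those of preCFUE. This held for 21.4% of all genes and 3649 of the 10916 above the 40th percentile. By role, 2 of 4 polymerase subunits, 3 of 5 chaperones and regulators, 4 of 7 ribonucleoprotein components, 5 of 7 small-subunit factors and 12 of 14 large-subunit factors were lower.

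Polr1b had the largest difference, at 90.4 ± 32.5 in MkP and 323 ± 24.9 in preCFUE (SD, n = 3 each; -1.71 ± 0.27, 3.27-fold lower, adjusted p 0.000516). Wdr12 stood at 170.0 ± 46.4 and 585 ± 225 (-1.66 ± 0.44, adjusted p 0.0184). Nolc1 stood at 243 ± 9.68 and 738 ± 139.6 (-1.52 ± 0.19, adjusted p 8.72e-05). In all 3 genes the arrays did not overlap, and Nolc1 had the smallest adjusted p of the list. Wdr74 followed with 189 ± 91.8 and 521.5 ± 101.0 (-1.46 ± 0.32, adjusted p 0.00624). Gnl3 had 724 ± 201 and 1978 ± 419 (-1.44 ± 0.25, adjusted p 0.00116). Rrp12 had 55.1 ± 23.5 and 168 ± 8.48 (-1.42 ± 0.24, adjusted p 0.000951). The other 20 ranged from -0.70 to -1.37, with Pes1 at -1.31 (adjusted p 0.00185), Fbl at -1.11 (adjusted p 0.00517) and Nop56 at -0.86 (adjusted p 9.19e-05) among them. The most abundant genes that did not pass were Npm1 (3171 ± 564 against 5428 ± 217; -0.79 ± 0.27, adjusted p 0.0665) and Ncl (1134 ± 290 against 2725 ± 736; -1.25 ± 0.47, adjusted p 0.0889). A dimmer Ncl probe set did pass in limma over all probe sets with a single symbol (-0.75 ± 0.19, adjusted p 0.018). Its remaining probe sets, at -0.16, -0.93 and -0.01, did not. Rrs1 also passed with its other probe set (-1.60 ± 0.48, adjusted p 0.0443) but not with the one used here (-0.67, adjusted p 0.0747).

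The count lay between 19, without preCFUE replicate 1, and 33, without CLP replicate 2, whichever single array was left out. Polr1b, Nolc1, Wdr74, Gnl3 and Rrp12 passed under every alternative setting that tested them and with any 1 array left out. Of these, all but Nolc1 had 1 probe set, so the mean over probe sets left their values unchanged. Wdr12 passed under every setting but not without MkP replicate 1 or 3 or preCFUE replicate 1. With the mean over probe sets, Nop56 and Polr1a did not pass. Of 27 other probe sets of the 26 genes, 23 had the same sign and 4 the opposite sign, none of those 4 passing. These 27 include 5 with a mean intensity under 16, of Polr1a, Wdr12, Ebna1bp2 and Pes1, whose signs carry little weight. Among all genes the split of higher to lower calls was 1003 to 1946 as deposited and 1296 to 1180 after quantile normalization.

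The other pathway genes showed the same direction: 65 of 114 were lower and 0 higher (87 and 0 at an unadjusted p under 0.05), with a median of -0.90, and after quantile normalization 39 were lower and 0 higher, with a median of -0.57. Nmd3, the export adapter of the large subunit, was at 100.2 ± 53.1 in MkP and 453 ± 91.9 in preCFUE (-2.09 ± 0.39, adjusted p 0.00206). Pno1, a small-subunit factor, was at 94.9 ± 16.96 and 346 ± 70.3 (-1.70 ± 0.44, adjusted p 0.0164). Myc was lower in MkP (229.6 ± 10.4 against 658 ± 82.5; -1.45 ± 0.27, adjusted p 0.00194), and Mycn was higher (1046 ± 205 against 24.7 ± 1.44; 4.69 ± 0.30, adjusted p 7.89e-08). Of the cell cycle genes 4 of 18 S-phase genes were lower, led by Cdc6 (-1.73 ± 0.46, adjusted p 0.0196; -1.33, adjusted p 0.065 after quantile normalization) and Gins1 (-1.06 ± 0.26, adjusted p 0.014). After quantile normalization 1 S-phase gene was lower and 1 higher, and the median of the 18 moved from -0.46 to -0.09, with 9 on either side of 0. Of the 18 G2 and M genes 0 were higher and 0 lower in limma (1 lower at an unadjusted p under 0.05), with a median of -0.14 that turned to 0.25 after quantile normalization, where 1 gene was higher.

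CLP had lower values than preGM for most of the list, but this comparison leaned on single arrays, on the normalization and on the Gapdh ratio. As deposited 35 fold changes were below 0 and 2 above, with a median of -0.64; after quantile normalization 24 were below and 13 above, with a median of -0.24. The genes above the 40th percentile of intensity had a median of -0.30 as deposited and -0.04 after quantile normalization. In the test 9 genes (24.3%) were lower, against 13.3% of all genes and 21.4% of those above the 40th percentile, and 0 higher, against 5.07%; at an unadjusted p under 0.05 the counts were 20 and 0. After quantile normalization 4 were lower, namely Npm1, Polr1e, Fbl and Rrp12, and 1 was higher, Noc2l (0.37, adjusted p 0.0103). Of all 18193 genes, 1306 were then lower and 991 higher. The arrays of 9 genes lay wholly below those of preGM, which held for 16.1% of all genes. It also held for 2713 of the 10916 genes above the 40th percentile, a share close to that of the list.

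Npm1 was at 2636 ± 1581 in CLP and 5018 ± 489 in preGM (SD, n = 3 each; -1.08 ± 0.27, adjusted p 0.0174). Polr1e was at 63.8 ± 23.7 and 145.5 ± 15.0 (-1.05 ± 0.22, adjusted p 0.00647). Its probe set is of the kind whose probes may match other transcripts too. The same holds for those used for Fbl, Nop56, Tsr1, Nhp2, Wdr43, Gar1, Polr1c and Rrs1. Fbl was at 375.5 ± 102 and 763 ± 96.9 (-1.02 ± 0.24, adjusted p 0.0114). In each of these genes the CLP arrays lay below preGM, but for Npm1 CLP replicate 2, at 4454, came close to the lowest preGM array, at 4568. Rrp12 had -0.84 ± 0.24 (34.9 ± 8.61 and 75.9 ± 21.0, adjusted p 0.0281). Polr1b had -0.81 ± 0.27 (89.3 ± 22.7 and 166.5 ± 17.9, adjusted p 0.0481), and Heatr1 -0.81 ± 0.21 (239 ± 46.6 and 433 ± 105, adjusted p 0.0211). Ddx21, Noc3l and Ddx18 were the other 3, at -0.76, -0.65 and -0.65. The most abundant genes that did not pass were Ncl (1214 ± 890 against 2454 ± 1000; -1.16 ± 0.47, adjusted p 0.0942) and Tsr1 (2121 ± 586 against 2082 ± 109; -0.01 ± 0.19, adjusted p 0.966; 0.38 after quantile normalization).

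Without CLP replicate 2, 22 genes were lower; without CLP replicate 1 the count was 2, without CLP replicate 3 it was 1, and without preGM replicate 1 or 2 it was 3. In a fit of the CLP and preGM arrays alone it was 0. With array weights it was 21. The shares of all genes in these fits are not given here, so the moves of the count need not be particular to the list. The Gapdh ratio was 3.00 to 5.12 in CLP and 2.72 to 3.94 in preGM, and with it as a covariate 3 genes were lower, Npm1, Polr1e and Fbl, while Ddx18, Ddx21, Heatr1, Noc3l, Polr1b and Rrp12 no longer passed. Polr1e was the one gene that passed with every single array left out. Second probe sets of Polr1a (0.60 ± 0.16, adjusted p 0.03) and Rrp1b (0.63 ± 0.14, adjusted p 0.0137) were higher in CLP, where the probe sets used here gave -0.13 and -0.04 without passing.

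Of the 114 other pathway genes 36 were lower in CLP and 0 higher (62 and 0 at an unadjusted p under 0.05), with a median of -0.66; after quantile normalization 11 were lower and 2 higher, with a median of -0.28. Pno1 was at 61.9 ± 63.7 in CLP and 199 ± 66.1 in preGM (-1.71 ± 0.44, adjusted p 0.0179), with overlapping arrays. Rpf1, a large-subunit factor, was at 37.7 ± 33.1 and 118 ± 38.8 (-1.44 ± 0.46, adjusted p 0.0453). Myc (429 ± 97.6 against 672 ± 288, adjusted p 0.138) and Mycn (246 ± 88.4 against 219 ± 49.4, adjusted p 0.787) did not pass. Of the cell cycle genes 8 of 18 G2 and M genes and 7 of 18 S-phase genes were lower, led by Ccnb2 (-2.01 ± 0.33, adjusted p 0.00129) and Bub1 (-1.70 ± 0.37, adjusted p 0.00868). After quantile normalization 3 of each were lower, and the medians moved from -0.68 to -0.34 for G2 and M and from -0.50 to -0.25 for S phase. Their part in the result was not tested.

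**Figure D4:**
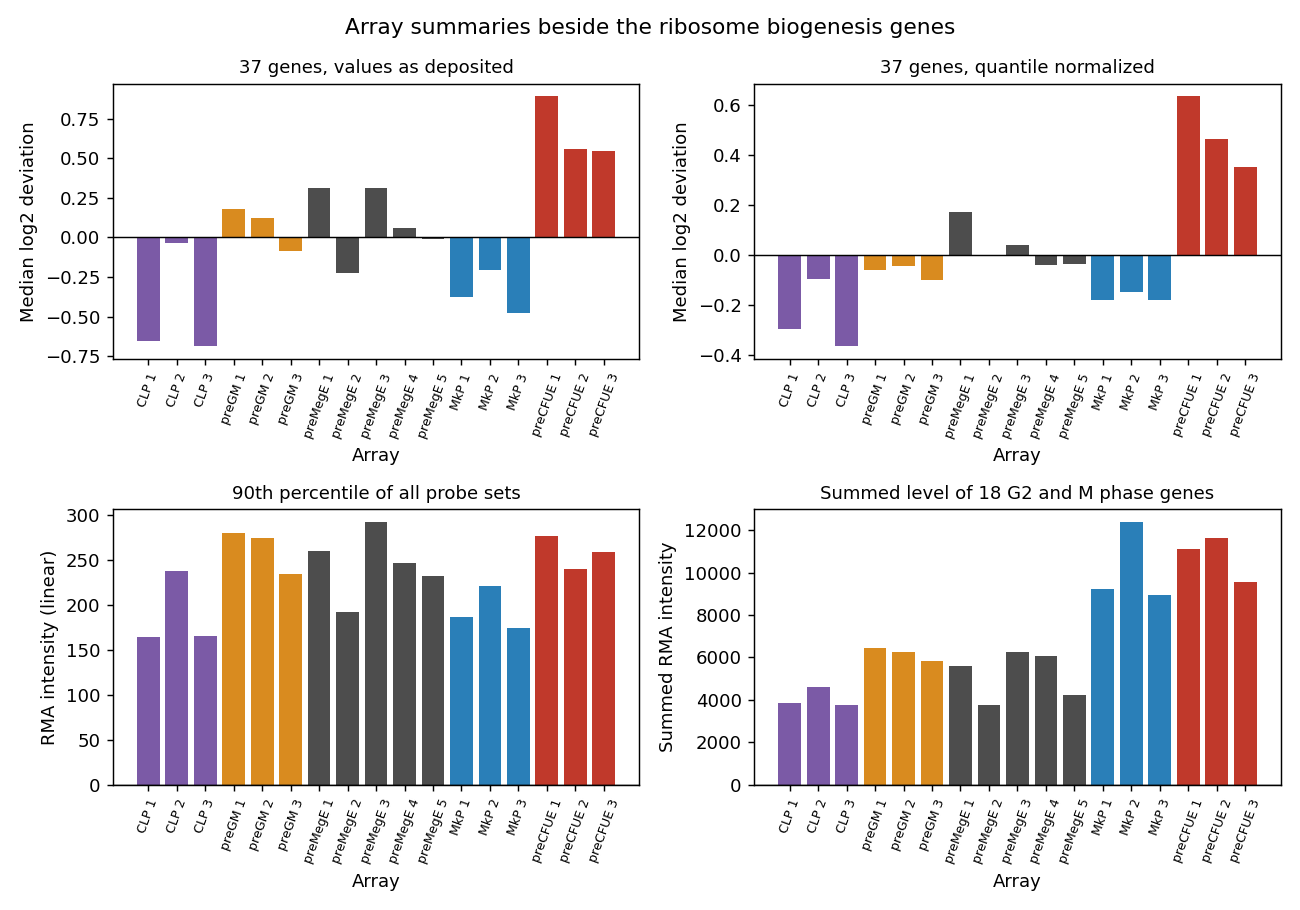
Array summaries, 1 bar per array coloured by fraction: the median deviation of the 37 genes from their means over 17 arrays (log2 scale) as deposited and after quantile normalization, the 90th percentile of intensity, and the summed intensity of 18 G2 and M genes. The 3 preCFUE arrays have the highest median deviation, 0.55 to 0.89 as deposited and 0.35 to 0.64 after quantile normalization, whereas the G2 and M sums are high in both MkP and preCFUE.

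Sums over gene lists set the ribosome genes beside the cell cycle genes. The summed G2 and M genes lay at 8935 to 12360 in MkP and 9552 to 11610 in preCFUE, overlapping, while the summed ribosome genes lay at 17507 to 20802 in MkP and 35755 to 39566 in preCFUE, apart. The summed S-phase genes lay at 20350 to 21510 in MkP and 26570 to 27480 in preCFUE, apart as deposited, though the median S-phase fold change between them was -0.09 after quantile normalization. Myc stood at 230 in MkP, 429 in CLP and 658 to 672 in the other fractions by their means. Its lowest means were thus in MkP and CLP, as for the ribosome genes, though most of those were lowest in CLP. Unlike most of them, Myc was not higher in preCFUE than in preMegE or preGM. Mycn was lowest in preCFUE and highest in MkP. The part of these lists in the levels of the ribosome genes was not tested.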

How the data were processed

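The authors deposited RMA intensities on a linear scale, 1 value per probe set and array, as both the design text and the notes on processing by the submitters name RMA; its version is not given in the sources used here. Before hybridisation the RNA was amplified in more than 1 round, per the series' design text, a step that can differ between samples. GEO's platform annotation supplied the gene names: of 45101 probe sets 34958 had 1 gene symbol, 932 several and 9211 were not listed; 64 controls were left out.

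The brightest probe set per gene was kept. All 17 arrays entered 1 limma 3.58.1 model (R 4.3.3; package data.table, version 1.17.8) of log2(intensity + 16) with a term per fraction, followed by eBayes (degrees of freedom 12 residual, 2.01 prior), without a filter on low values. Of all values 47.3% lay under 16, the lowest being 4.33 and the highest 24739. The number of arrays limits the precision. P-values were Benjamini-Hochberg adjusted over all genes. The steps were tested on simulated data. Plots used Python 3.11.15 with matplotlib 3.10.9 and pandas 2.3.3.

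The members, the other pathway and cell cycle lists, the comparisons and the alternatives were chosen with earlier results of these data known. Full values are given per comparison for the up to 6 passing members of greatest change and for the 2 most abundant that did not pass, for the 6 smallest and 4 largest p of the F test, for the 2 largest passing changes in each direction of the other pathway lists and of the cell cycle lists, and for Myc and Mycn; other members are named where their arrays or probe sets bear on a count. Alternatives were other pseudocounts (1 and 64), filters (the 40th percentile of intensity, or an SD over mean above 0.5 as in the authors' dChip step), quantile normalization, median centring, the mean over probe sets, array weights, a Gapdh 3' to 5' covariate, a replicate block, a fit of only the arrays compared, and each array left out in turn. The main model did not pair arrays by replicate number, as no clear sign of such pairing was found.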

Additional observations from a re-analysis of the deposited data

Results flagged for a closer look

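In preMegE, the fraction with 5 arrays, each of the 37 genes was checked for an array far from the rest by Dixon's gap over range, with a critical value of 0.71. The check picked out 2 genes, and chance alone picks out about 1 in 20 groups. Heatr1 was at 505 on preMegE replicate 3, where the nearest array was at 328. Noc3l was at 108 on preMegE replicate 1, where the nearest array was at 70.7. Heatr1 is one of the genes higher in preCFUE than in preMegE, and its difference was 0.71 (adjusted p 0.0308) with that array and 0.86 (adjusted p 0.00264) without it in limma. It did not pass in 7 fits that left out another single array, among them each preCFUE array (adjusted p up to 0.129 in limma). Nor did Heatr1 pass with the replicate block or the mean over probe sets. Noc3l did not pass in either comparison that uses the preMegE arrays against MkP or preCFUE.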

How the results depend on the processing

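Of 74 calls of members and other named genes, 0 turned direction under the alternatives run, single arrays left out included; 23 were lost with the replicate block, 18 in fits of only the arrays compared, 17 with quantile normalization and 12 with the mean over probe sets. Counts of members that moved by over 1.5 times are these. Calls over all genes can move with a setting as well, so a moved count need not be particular to the ribosome genes. For preMegE against preGM (0), quantile normalization gave 1, array weights 3 (1 higher and 2 lower) and the 3' to 5' covariate 1. For MkP against preMegE (2), the pseudocount of 64 and quantile normalization gave 1 each, the 40th percentile filter 5, the SD over mean filter 4 (9 members tested), the mean over probe sets 6, array weights 15, the covariate 6, the replicate block 0 and the arrays compared alone 8. For preCFUE against preMegE (12), the SD over mean filter gave 3, array weights 21, the covariate 19 and the replicate block 4. For MkP against preCFUE (26), the SD over mean filter gave 8 and quantile normalization 17. For CLP against preGM (9), the 40th percentile filter gave 15, quantile normalization 5 (4 lower and 1 higher), array weights 21, the covariate 3, the replicate block 4 and the arrays compared alone 0. For the F test (33), the SD over mean filter gave 7. The low counts under that filter reflect the 9 members it left to test; for the others the cause was not tested. With single arrays left out the counts ran from 0 to 0, 0 to 9, 5 to 16, 19 to 33, 1 to 22 and 27 to 34 in the same order. Values near 0 turned sign without passing: Npm1 in preMegE against preGM (-0.0192 with median centring, -0.0262 with the mean over probe sets, -0.0284 with the replicate block, -0.0649 to 0.0736 with arrays left out), Myc in the same comparison (-0.005 with median centring, -0.17 to 0.34) and in preCFUE against preMegE (-0.0926 with quantile normalization, -0.0375 with array weights, -0.11 to 0.14), and in CLP against preGM Tsr1 (0.38 with quantile normalization, 0.13 with array weights, -0.16 to 0.24) and Mycn (-0.0695 with array weights, -0.12 to 0.38). Deviations of same-numbered arrays correlated between -0.54 and 0.51 over 30 pairs, 11 of them over 0.1, and 5 of 15 arrays correlated best with their own number. These correlations gave no clear sign of pairing by number, but they cannot show that there was none. Of all genes, the split of higher to lower calls moved under quantile normalization from 724 to 1158 to 1083 to 867 in MkP against preMegE, from 865 to 716 to 909 to 917 in preCFUE against preMegE, and from 923 to 2414 to 991 to 1306 in CLP against preGM.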
